A study of Mus musculus with 27 samples.

Results

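Cytochrome P450 genes encode the haem-containing oxygenases of the endoplasmic reticulum and mitochondria, and 33 of them were measurable in RNA from mouse intestine. Genes were taken where the symbol is Cyp followed by a number, letters and a number, the deposited table lists protein_coding among the transcript types, and FPKM, the fragment count scaled to gene length and library depth, reached 1 in at least 3 of 27 libraries. The name and type held for 94 genes, of which 61 fell below that level and 8 of those had 0 counts in all libraries. The 33 stand among 11118 genes that passed the same level and were tested, of 55401 in the table. For 13 of the 33, protein_coding is the only type the table lists, and all 33 are protein-coding genes in GENCODE vM21. The genes were thus chosen by their FPKM in any library and not by a difference between groups. A gene high in few libraries could still pass through them, as Cyp2j11 and Cyp20a1 did.

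The libraries came from wild-type male C57BL/6 mice aged 6 to 8 weeks, with 3 libraries in each of 9 groups. Control mice are labelled as untreated. Irradiated mice were exposed to gamma rays of 60Co at 72 R/min, and the irradiated field is not stated. Intestine was taken 6 h or 24 h after 6 Gy, and 6 h, 24 h or 3 d after 15 Gy. The radioprotectant CBLB502 is a protein derived from bacterial flagellin that activates Toll-like receptor 5. It was injected into the peritoneum at 0.2 mg per kg alone, with 15 Gy or with 6 Gy, and intestine of these mice was taken after 24 h. The design text gives the injection as 0.5 h before 15 Gy, and it names a PBS group as control for CBLB502 among 7 groups of 10 mice, while the labels hold 9 groups and none given PBS. The segment of intestine and the time of day of collection are not stated. It is not stated that the 3 libraries of a group come from 3 animals, and the p-values therefore reflect variation among libraries, which may be technical.

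P450 enzymes of families 1 to 3 oxidise drugs, toxins and steroids, and the gut lining is the first tissue that swallowed compounds meet. Enzymes of family 4 and of the Cyp2c and Cyp2j subfamilies also oxidise fatty acids such as arachidonic acid to signalling lipids. Enterocytes switch many of these genes on through ligand-activated receptors: the aryl hydrocarbon receptor (AhR) for Cyp1a1, the constitutive androstane receptor (CAR) for Cyp2b10, and the pregnane X receptor (PXR) for Cyp3a11. All microsomal P450 enzymes take electrons from a single reductase, Por. Of the 33 genes, 22 belong to families 1 to 3, 9 to family 4 and 2 to families 20 and 27.

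In control intestine Cyp3a13 and Cyp4f14 had the highest FPKM of the 33. Cyp3a13, a Cyp3a enzyme of the gut, stood at 751, 761 and 779 FPKM in the 3 control libraries, and Cyp4f14, a hydroxylase of leukotriene B4 and vitamin E, at 764, 615 and 550.3. These values overlapped, and all 3 of Cyp4f14 lay above all 3 of Cyp4v3, a fatty acid hydroxylase at 405, 381 and 321. Cyp3a11, Cyp2b10, Cyp3a25, Cyp2d26 and Cyp2c65 followed with mean control levels of 361, 239.6, 229, 203 and 166 FPKM, and neighbours in that order overlapped. Cyp4b1 (103), Cyp2c68 (72.5) and Cyp27a1 (50.2) each lay below the gene before it without overlap. The remaining genes reached down to Cyp4f18 at 0.102. Summed over the 33 genes, the control level was 3445 ± 149 FPKM (SD, n = 3). It was 1833 ± 276 at 6 Gy 6 h, 3980.4 ± 453 at 15 Gy 6 h, 3487 ± 1383 at 15 Gy 24 h and 2589 ± 410.1 at 15 Gy 3 d. CBLB502 alone gave 2678 ± 586, and the groups with 15 Gy + CBLB502, 6 Gy at 24 h and 6 Gy + CBLB502 gave 3727 ± 569, 3771 ± 371 and 3487 ± 560.0. The 3 libraries of 6 Gy 6 h lay between 1544 and 2094, below all 3 of control at 3283 to 3575, and those of 15 Gy 3 d between 2299.6 and 3059 did as well. TMM, the scaling between libraries used for the tests below, is not part of FPKM. Its factors were 1.23 to 1.43 in the groups sampled 24 h after 6 Gy and 0.861 to 0.864 in control. On the TMM scale, mean counts per 1 M of Cyp3a13, Cyp4f14, Cyp4v3 and Cyp3a11 were 1773, 1039, 1064 and 2585 at 6 Gy 24 h. Control had 2830.0, 1951, 1760.3 and 2303. Sums at 24 h after 6 Gy thus depend on the scaling.

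**Figure D1:**
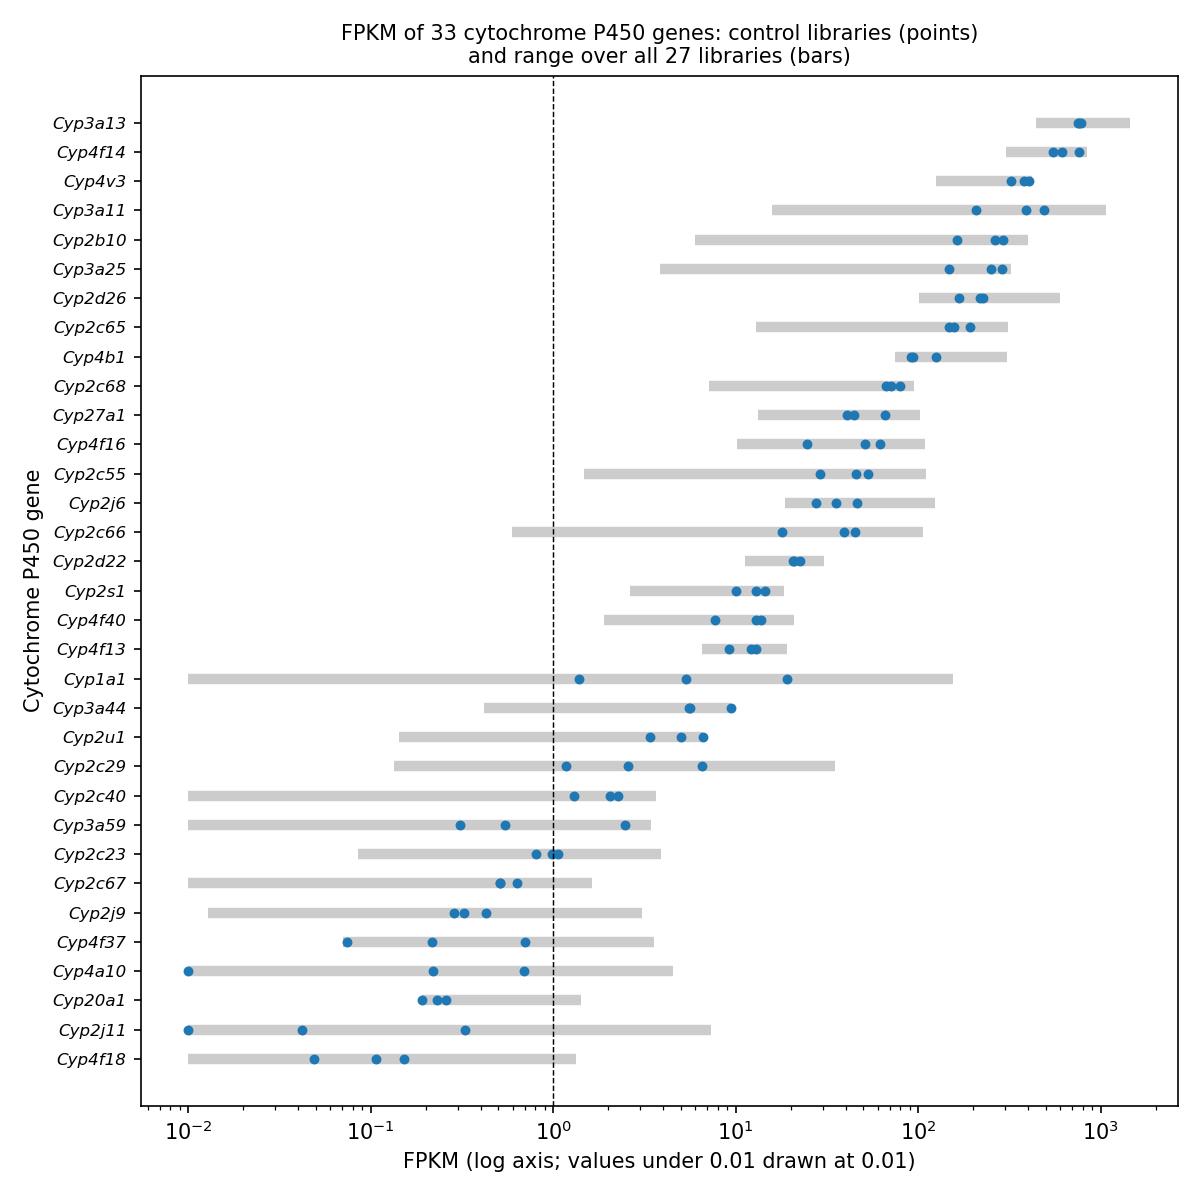
FPKM on a log axis for each of the 33 cytochrome P450 genes, ordered by control mean: points are the 3 control libraries, bars span all 27 libraries and the dashed line marks 1 FPKM. Control levels run from 764 for Cyp3a13 to 0.102 for Cyp4f18, and the bars of Cyp2b10, Cyp3a25, Cyp2c55, Cyp2c66 and Cyp1a1 reach far to the left of their control points.

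**Figure D2:**
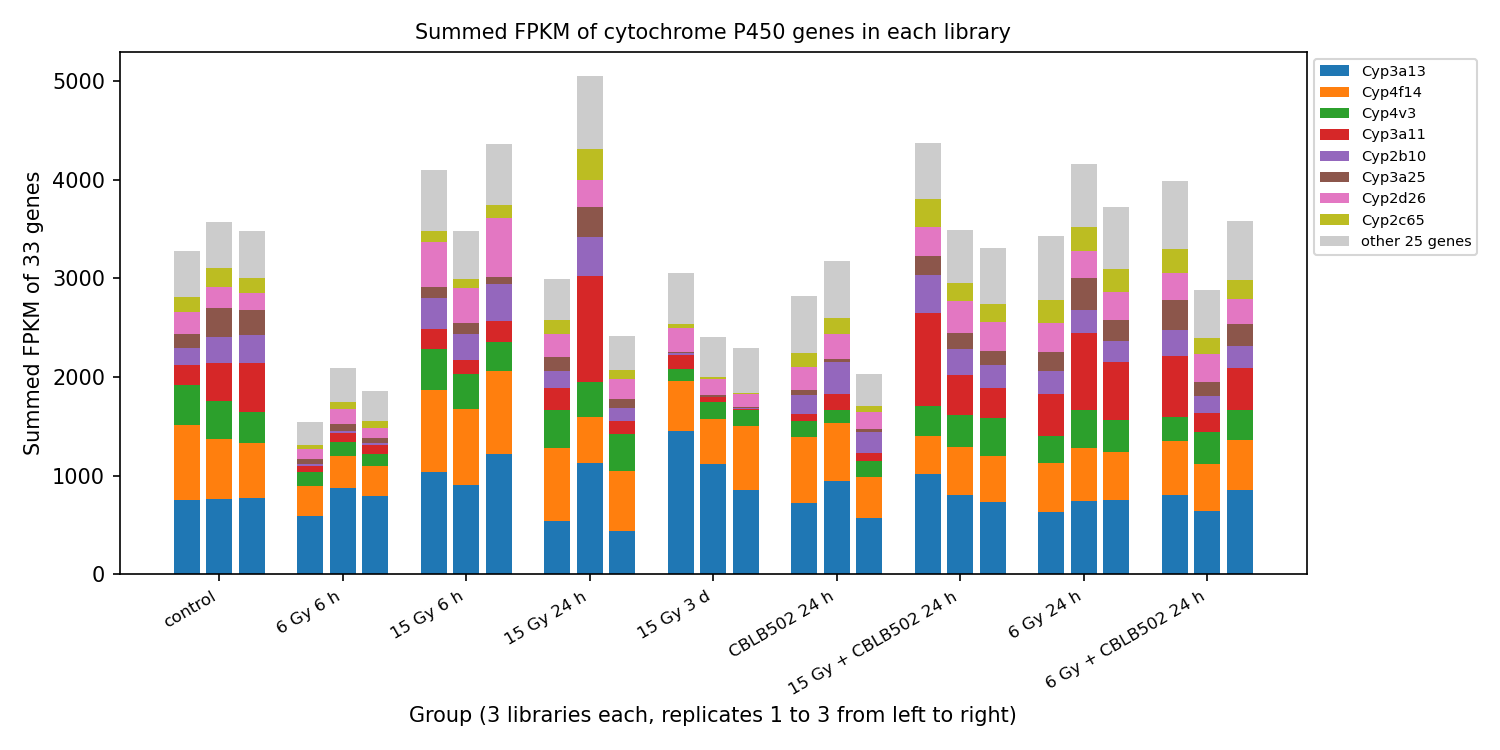
Summed FPKM of the 33 genes in each of 27 libraries, with the 8 genes of highest control mean in colour and the other 25 in light grey. The 6 Gy 6 h libraries (1544 to 2094) lie below all others but 1 of CBLB502 alone (2031), and the second library of 15 Gy 24 h (5049.6) is the tallest bar.

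Most of these genes lie in tandem blocks. On GRCm38 chromosome 19 holds 8 Cyp2c genes, of which all but Cyp2c23 (chr19:44005022-44029208) lie between Cyp2c55 (chr19:39007019-39042693) and Cyp2c40 (chr19:39767071-39812814). Chromosome 5 holds 5 Cyp3a genes, of which all but Cyp3a13 (chr5:137892932-137921619) lie between Cyp3a44 (chr5:145773983-145805874) and Cyp3a59 (chr5:146079257-146113287). Another 5 are Cyp4f genes of chromosome 17, and Cyp2j and Cyp4a or Cyp4b genes lie on chromosome 4. Start and end in the table equal those of GENCODE vM21 on GRCm38 for 31 of the 33. Neighbours within a block are close copies, so reads may be shared between them, and counts of the Cyp2c67, Cyp2c68 and Cyp2c40 trio, of the Cyp3a genes and of Cyp4b1 with its pseudogene Cyp4b1-ps2 are uncertain to that extent.

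RefSeq promoter windows on GRCm38.p6, from 250 bases before to 50 after the start, were found by symbol for 29 of the 33 genes. These 29 genes had 34 windows. A gene was counted once if any of its windows held the motif, while the share over all windows counts each window, so the shares are not strictly alike. Motifs were searched on both strands after the expression values were known, and a match is a description of letters, not a site of binding. CAAAGTCCA, a motif of the liver and gut factor HNF4, occurred in 5 of the 29 (17.2%) and in 156 of all 32851 windows (0.475%). The stretches around it are shown because these 5 genes were all called lower 3 d after 15 Gy, as were 21 of the 33 in all. Each is written 5′ to 3′ on the gene's strand with the motif in capitals.
Cyp3a11, chr5:145879925-145879993, minus strand: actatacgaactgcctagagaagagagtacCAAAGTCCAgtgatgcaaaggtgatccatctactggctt
Cyp2c65, chr19:39060860-39060928, plus strand: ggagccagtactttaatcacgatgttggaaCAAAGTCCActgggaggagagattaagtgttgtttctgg
Cyp2c67, chr19:39649129-39649197, minus strand: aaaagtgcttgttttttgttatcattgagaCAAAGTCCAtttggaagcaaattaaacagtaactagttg
Cyp2c68, chr19:39741140-39741208, minus strand: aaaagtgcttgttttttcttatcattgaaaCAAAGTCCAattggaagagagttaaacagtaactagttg
Cyp2c40, chr19:39812821-39812889, minus strand: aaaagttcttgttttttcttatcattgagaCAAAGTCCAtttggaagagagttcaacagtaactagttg
The Cyp2c67, Cyp2c68 and Cyp2c40 stretches were 91.3 to 94.2% identical over 69 bases, so they are copies of one promoter, while Cyp2c65 shared 47.8 to 55.1% with them and Cyp3a11 33.3 to 42%. The motif began 109 bases before the start of Cyp3a11, and 116, 125, 77 and 45 before those of Cyp2c65, Cyp2c67, Cyp2c68 and Cyp2c40.

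For Cyp1a1, the textbook AhR target, the window held GCGTG, the core of the AhR site, at -54 and TATAAA at -30, both in capitals here.
Cyp1a1, chr9:57697529-57697612, plus strand: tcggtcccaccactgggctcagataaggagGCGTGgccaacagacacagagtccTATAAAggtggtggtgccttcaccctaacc
GCGTG was found in 8 of 29 genes (27.6%) against 32.4% of all windows, and TATAAA in 10 (34.5%) against 13.6%. TTANGTAA, bound by the clock output factors Dbp, Tef and Hlf, was found in 0 of 29 against 2.32%. The other motifs searched were CACGTG in 2 of 29 (7.15% of all windows), AGGTCA and AGTTCA in 5 each (16.3% and 14%), and GTTAAT in 5 (7.1%). AGGTCA followed by AGTTCA after 4 bases, AGTTCA repeated after 4 bases, AGGTCA repeated after 1 base, and the full HNF1 motif, which contains GTTAAT, were each in 0 of 29, and in at most 0.0396% of all windows. Other spacings and orders of these letters were not searched.

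The libraries held between 57.4 and 87.1 M counts each. The 19 enterocyte markers all reached 1 FPKM in at least 1 library of every group. The groups sampled 24 h after 6 Gy stood apart in markers of other tissues. Of 20 exocrine pancreas markers, 20 reached 1 FPKM in a library of 6 Gy 24 h and 19 in one of 6 Gy + CBLB502, against 3 to 8 in the other 7 groups, and 18 of 19 tested were called higher than control in both, against at most 2 elsewhere. Their sums were 108 to 7569 and 245 to 2414 FPKM against 48.6 to 60.2 in control, and they overlap those of 15 Gy 3 d, at 317 ± 81.2 (SD, n = 3) with a highest of 407. At 15 Gy 3 d, at 15 Gy 6 h and with CBLB502 alone, 3 of the 20 reached 1 FPKM, so few genes make up the sums there. The median log2 fold change at 3 d was 0.00. Of 6 smooth muscle markers tested, 4 and 3 were called higher in these groups and 0 in any other. Because many P450 genes are liver genes, 15 hepatocyte markers were examined. Their sum was 97.1% Apoc3, which enterocytes also make, and albumin was at 0 in control and reached 6.16 and 9.4 FPKM at most, in 15 Gy 3 d and 6 Gy + CBLB502. With 6 Gy + CBLB502, 10 of the 15 reached 1 FPKM in a library against 2 in control, and 4 of 7 tested were called higher and 1 lower, with a median log2 fold change of 1.74. Levels within a gene are given from here on as TMM-scaled counts per 1 M (CPM), one value for each of replicates 1, 2 and 3 in that order. Differences are log2 fold changes ± standard error from edgeR's quasi-likelihood test over all 27 libraries, called at an adjusted p under 0.05. All comparisons with control share its 3 libraries.

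At 6 h after 6 Gy, 20 of the 33 genes were called against control, 19 lower and 1 higher (60.6%), where 28.4% of all genes tested were called, 15.3% lower and 13.1% higher. The median log2 fold change was -1.43 over the 33 and 0.05 over all genes. Families 1 to 3 had 15 lower and 1 higher of 22, family 4 had 4 lower of 9, and neither gene of families 20 and 27 was called. In bulk tissue, fewer cells of a type and less RNA per cell cannot be told apart.

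Cyp1a1, which oxidises polycyclic aromatic compounds, had 4.84, 18.6 and 66.4 CPM in control and 0, 0.151 and 0.311 at 6 Gy 6 h. The control values spread widely, yet all 3 lay above the irradiated libraries (log2 fold change -7.53 ± 1.41, adjusted p = 0.000369). Cyp2b10, the phenobarbital-induced gene of the CAR pathway, fell from 436, 689 and 777 to 57.9, 49.8 and 36.1 CPM (-3.73 ± 0.41, adjusted p = 9.1e-07), with no overlap. Cyp2c55, an arachidonic acid hydroxylase of the gut, fell from 72.5, 132 and 114 to 6.91, 13.8 and 6.56 (-3.55 ± 0.77, adjusted p = 0.00152), and every irradiated library was below every control one. Cyp2c23, an arachidonic acid epoxygenase, went from 2.7, 2.85 and 2.19 to 0.27, 0.552 and 0.284 CPM (-2.79 ± 0.42, adjusted p = 3.3e-05), the groups again apart. Cyp3a11, the principal PXR target of the mouse, went from 1330.0, 2463 and 3117 to 415, 482 and 505 (-2.30 ± 0.69, adjusted p = 0.0163), the irradiated libraries close together and all lower. Cyp3a59 was low throughout, at 0.802, 6.24 and 1.39 in control and 0.152, 0.728 and 0.162 after irradiation (-3.00 ± 0.89, adjusted p = 0.0161). The other 13 that fell ranged from -2.13 (Cyp3a25) to -0.65 (Cyp4f13). The gene of highest FPKM, Cyp3a13, was not called, at 2802, 2800.0 and 2888 and 2398, 2689.6 and 2594 CPM (-0.14 ± 0.23, adjusted p = 0.693).

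Cyp2j11 moved the other way, from 0, 0.107 and 0.805 CPM in control to 5.36, 14.6 and 10.2 at 6 Gy 6 h (5.04 ± 1.59, adjusted p = 0.0211). It belongs to the arachidonic acid epoxygenase subfamily Cyp2j, reached 1 FPKM in these 3 libraries alone, and so had to be high there to be among the 33. Its neighbours on chromosome 4, Cyp2j6 and Cyp2j9, were not called (log2 fold changes 0.32 and 0.04). Single libraries ended some calls of this comparison: Cyp3a11 without 6 Gy 6 h replicate 1 (adjusted p = 0.0533), Cyp3a59 without control replicate 2 or 6 Gy 6 h replicate 1 or 3 (adjusted p from 0.0642 to 0.174), Cyp2j11 without control replicate 1 or 2 or 6 Gy 6 h replicate 2 (adjusted p from 0.0531 to 0.0805), Cyp2u1 without control replicate 1 or 6 Gy 6 h replicate 2 or 3 (adjusted p from 0.0806 to 0.108) and Cyp2c66 without control replicate 2 or 3 or 6 Gy 6 h replicate 1, 2 or 3 (adjusted p from 0.0722 to 0.163).

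Values of other genes moved with this fall. The enterocyte markers summed to 31581 to 37968 FPKM against 57901 to 71534 in control, and 16 of 19 were called lower, with a median log2 fold change of -1.01. The 8 markers of the distal small intestine summed to 761 to 866 against 420.4 to 526, of which Slc51b makes up most, while 3 of the 6 tested were called lower and 1 higher. The 11 proximal markers summed to 13212 to 21017 against 21399 to 26799.8. Among 14 tested clock genes, 9 were called lower and 2 higher. Their part in the P450 result was not tested.

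At 6 h after 15 Gy, 7 of the 33 genes were called against control, 4 higher and 3 lower (21.2%, against 29% of all genes tested, 12.2% higher and 16.8% lower), which is not above the background. The median was 0.15 over the 33 and 0.02 over all genes. Cyp2d26, of the Cyp2d drug-metabolising subfamily, rose from 512, 483 and 375 to 953, 793 and 1301 CPM (1.15 ± 0.19, adjusted p = 1e-04), with every irradiated library higher. Cyp4b1, which turns certain furans into toxic products, rose from 356, 263 and 258 to 479.6, 508 and 636 (0.89 ± 0.15, adjusted p = 0.000143), again without overlap. Cyp2j6 had 211, 124 and 160.4 in control and 395, 242 and 325 after 15 Gy (0.96 ± 0.36, adjusted p = 0.05), and Cyp4f13 72.4, 66.8 and 51.6 and 85.5, 78.4 and 102 (0.48 ± 0.15, adjusted p = 0.0221). Both were higher in all 3 irradiated libraries than in any control library, and the p of Cyp2j6 is just under the threshold before rounding. Lower were Cyp3a25, from 388, 751 and 656 to 294, 285 and 177 CPM (-1.25 ± 0.39, adjusted p = 0.0203), and Cyp3a44, from 14, 23.1 and 13.7 to 6.35, 7.95 and 6.87 (-1.26 ± 0.46, adjusted p = 0.0436). Cyp2c68 had 145, 172 and 154 and 128, 98.1 and 104 (-0.51 ± 0.18, adjusted p = 0.0422), also without overlap. Calls were lost for Cyp4f13 without control replicate 3 or 15 Gy 6 h replicate 3 (adjusted p from 0.114 to 0.118), Cyp3a25 without control replicate 2 or 15 Gy 6 h replicate 3 (adjusted p from 0.0809 to 0.0942), Cyp2j6 without control replicate 2 or 3 or 15 Gy 6 h replicate 1 or 3 (adjusted p from 0.0983 to 0.171), Cyp3a44 without control replicate 1 or 2 or 15 Gy 6 h replicate 1, 2 or 3 (adjusted p from 0.0531 to 0.168) and Cyp2c68 without control replicate 1, 2 or 3 or 15 Gy 6 h replicate 2 or 3 (adjusted p from 0.0527 to 0.131), so the count fell to 3, 4 and 2 without control replicate 2, control replicate 3 and 15 Gy 6 h replicate 3. It was also 4 without the 6 libraries of 24 h after 6 Gy, and 4 with counts scaled to library totals in place of TMM, where Cyp4f13, Cyp2j6 and Cyp2c68 were not called. The enterocyte markers summed to 77516 to 86977 FPKM here against 57901 to 71534 in control, with 4 of 19 called higher and 3 lower. The proximal markers summed to 38878 to 46952 against 21399 to 26799.8, with 6 of 11 higher and 0 lower. Of 6 distal markers 1 was lower. The exocrine pancreas markers summed to 90.4 to 206 FPKM against 48.6 to 60.2 in control, with 1 of 19 called higher. The part of these markers in the P450 result was not tested.

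The direct comparison of the 2 doses at 6 h called 17 of the 33 genes, all 17 higher at 15 Gy (51.5%), where 43.2% of all genes tested were called, 20.2% higher and 23% lower. The median was 1.28 over the 33 and -0.03 over all genes. Family 4 had 7 of 9 called, families 1 to 3 had 9 of 22, and in the Cyp4f subfamily 5 of 6 were higher. Cyp2b10 stood at 769, 717 and 953 CPM after 15 Gy and 57.9, 49.8 and 36.1 after 6 Gy (4.08 ± 0.42, adjusted p = 1.5e-07). The libraries of 15 Gy were in the range of control or above it, those of 6 Gy far below both. Cyp1a1 had 13.4, 4.27 and 10.8 against 0, 0.151 and 0.311 (5.87 ± 1.34, adjusted p = 0.00131), and Cyp2c23 3.93, 2.18 and 2.47 against 0.27, 0.552 and 0.284 (2.94 ± 0.42, adjusted p = 8.4e-06). For both, the dose groups did not overlap. Cyp2d26 had 953, 793 and 1301 against 249, 277 and 206 CPM (2.06 ± 0.19, adjusted p = 5.6e-08), so that it lay above control at 15 Gy and below it at 6 Gy (-0.91 ± 0.19, adjusted p = 0.00094 for 6 Gy against control). Cyp2s1, an epithelial P450, had 91.8, 64.8 and 65.7 against 18.1, 18.2 and 19.9 (1.98 ± 0.18, adjusted p = 4.1e-08). Cyp4f37, at 2.36, 1.34 and 2.09 against 0.507, 0.213 and 0.271 (2.56 ± 0.81, adjusted p = 0.0149), is scarce and was called lower in no comparison with control. The remaining 11 ran from 0.86 to 1.82 in log2. Calls of this comparison were lost for Cyp2j9 without 6 Gy 6 h replicate 1 or 2 or 15 Gy 6 h replicate 1 (adjusted p from 0.0837 to 0.164), Cyp4f37 without 6 Gy 6 h replicate 2 or 3 (adjusted p from 0.054 to 0.0612), Cyp2c65 without 6 Gy 6 h replicate 1, 2 or 3 or 15 Gy 6 h replicate 1 or 3 (adjusted p from 0.0598 to 0.127) and Cyp4f40 without 6 Gy 6 h replicate 2 or 3 or 15 Gy 6 h replicate 1 or 2 (adjusted p from 0.069 to 0.121). Dose and any difference in collection between the groups cannot be told apart. The enterocyte markers summed to 77516 to 86977 FPKM at 15 Gy and 31581 to 37968 at 6 Gy. Proximal markers summed to 38878 to 46952 and 13212 to 21017, with 5 of 11 called higher at 15 Gy and 1 lower. Of 6 distal markers 3 were higher and 1 lower. Among 14 tested clock genes, 8 were called higher at 15 Gy and 4 lower, with a median log2 fold change of 1.92. The part of these genes in the P450 result was not tested.

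**Figure D3:**
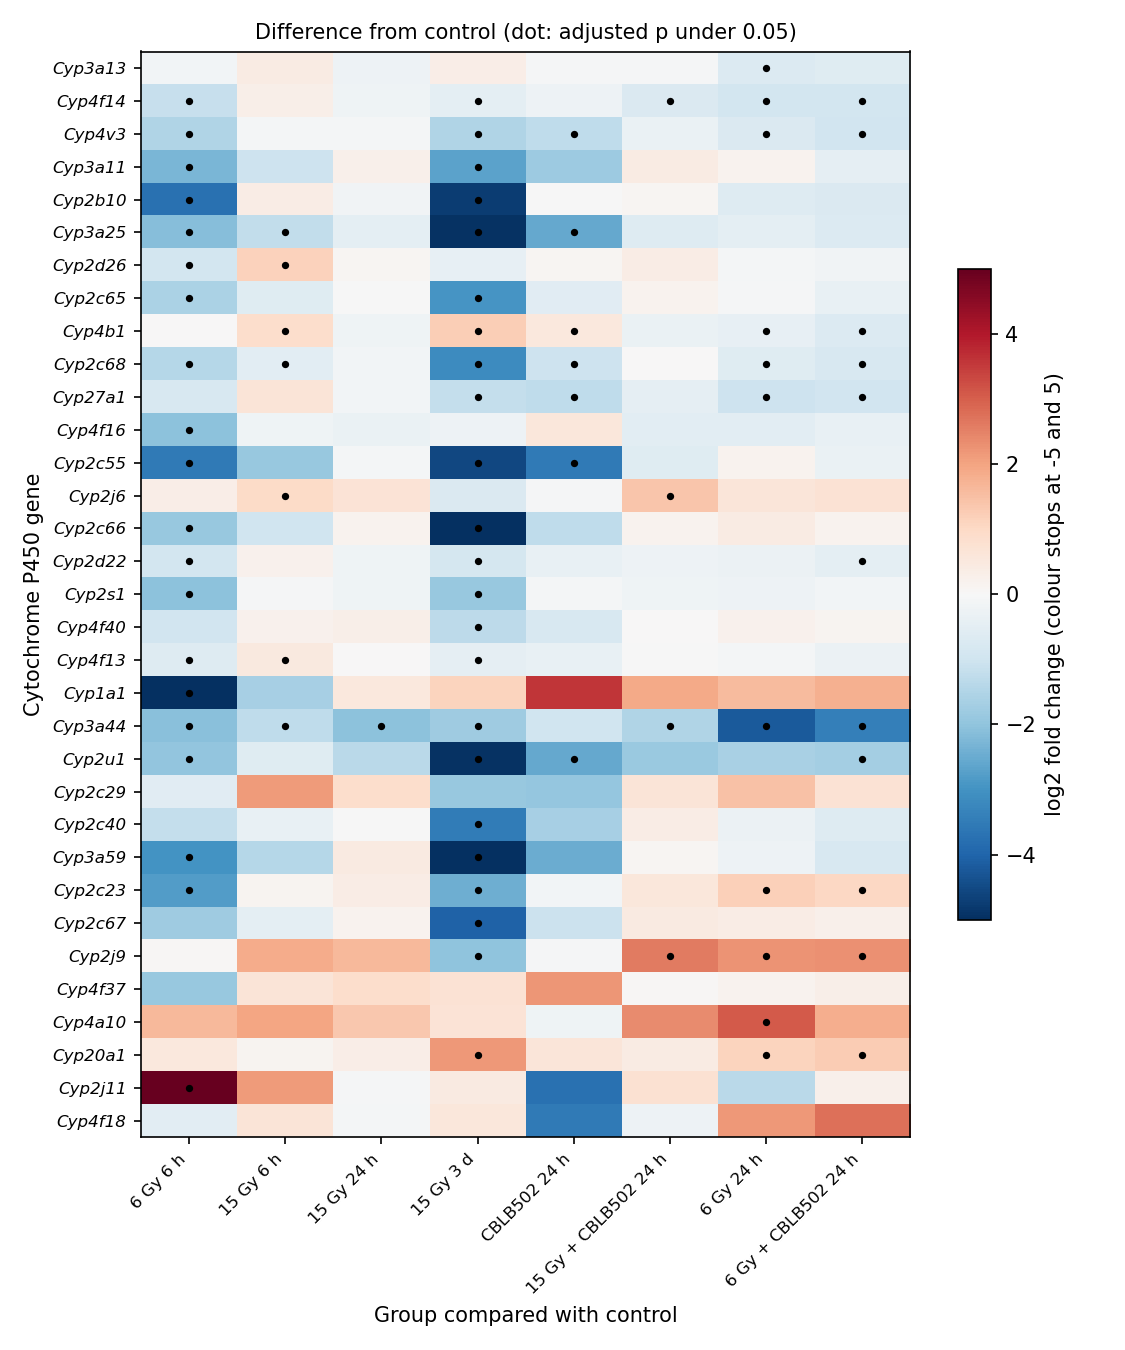
Log2 fold change against control for the 33 genes (rows, by control FPKM) in the 8 other groups (columns), blue for lower and red for higher, with a dot where the adjusted p is under 0.05. The columns of 6 Gy 6 h and 15 Gy 3 d carry 20 and 23 dots, nearly all blue, and the column of 15 Gy 24 h carries 1.

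At 24 h after 15 Gy, 1 of the 33 genes was called against control (3.03%, against 4.94% of all genes tested, 2.31% lower and 2.63% higher). It was Cyp3a44, a minor Cyp3a gene, at 4.87, 4.55 and 2.89 CPM against 14, 23.1 and 13.7 in control (-2.04 ± 0.47, adjusted p = 0.0161), without overlap. The call did not hold for Cyp3a44 without control replicate 2 or 15 Gy 24 h replicate 3 (adjusted p from 0.0637 to 0.0674). Compared with 6 h after the same dose, 6 genes were lower and none higher at 24 h (18.2%, against 32.2% of all genes, 13.5% lower and 18.7% higher). Cyp4b1 fell from 479.6, 508 and 636 to 303, 229.9 and 214 CPM (-1.12 ± 0.15, adjusted p = 1e-05) and Cyp2d26 from 953, 793 and 1301 to 449.9, 543 and 472 (-1.06 ± 0.19, adjusted p = 0.000194), which brought both into the range of control or next to it. Cyp3a13, Cyp4f14, Cyp4f13 and Cyp2d22 were lower by smaller amounts (-0.67, -0.49, -0.45 and -0.42). Of these, Cyp3a13 overlapped between the groups, at 3632, 3379 and 4357 and 1759, 3704 and 1663. Calls were lost for Cyp4f13 without 15 Gy 6 h replicate 3 or 15 Gy 24 h replicate 1 or 3 (adjusted p from 0.0784 to 0.146), Cyp4f14 without 15 Gy 6 h replicate 1, 2 or 3 or 15 Gy 24 h replicate 2 (adjusted p from 0.0673 to 0.213), Cyp3a13 without 15 Gy 6 h replicate 3 or 15 Gy 24 h replicate 1 or 3 (adjusted p from 0.122 to 0.155) and Cyp2d22 without 15 Gy 6 h replicate 1 or 3 or 15 Gy 24 h replicate 1 or 2 (adjusted p from 0.0505 to 0.189), and 2 genes were called without 15 Gy 6 h replicate 3. With library totals in place of TMM, Cyp4b1 and Cyp2d26 alone were called.

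The 3 libraries of 15 Gy 24 h stood far apart in P450 genes. The ratio of the highest to the lowest library had a median of 2.82 over the 32 of the 33 genes above 0 in all 3, and 1.40 over all genes, where the same medians in control were 1.69 and 1.41. Replicate 2 was the highest library for 21 of the 33 genes and for 33.5% of all genes. Cyp3a11 stood at 1233, 6020.3 and 881 CPM, Cyp2c55 at 33.2, 242 and 19.1, Cyp2c66 at 29.7, 229 and 21.1 and Cyp2c29 at 2.08, 69 and 2.22. In all 4, replicate 2 was above the highest control library, while replicates 1 and 3 were below all 3 control libraries. Without replicate 2, 2 genes were called against control in place of 1.

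At 3 d after 15 Gy, 23 of the 33 genes were called against control, 21 lower and 2 higher (69.7%), where 29.4% of all genes tested were called, 15.6% lower and 13.9% higher. The median log2 fold change was -1.50 over the 33 and 0.02 over all genes. The subfamilies differed in count: 7 of 8 Cyp2c genes and 4 of 5 Cyp3a genes were lower, with medians of -3.33 and -2.69, and 3 of 6 Cyp4f genes with a median of -0.36. With library totals in place of TMM the 3 Cyp4f calls were lost, and all Cyp2c and Cyp3a calls were kept. The difference between subfamilies was not tested, and the Cyp3a median is the same with Cyp3a59, at 0 counts, set to its bound.

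Cyp2b10 fell from 436, 689 and 777 CPM in control to 39.3, 12.6 and 18.6 (-4.75 ± 0.43, adjusted p = 8.6e-08), and Cyp3a25 from 388, 751 and 656 to 27.1, 22.2 and 9.05 (-4.94 ± 0.45, adjusted p = 9.8e-08). In both genes every library at 3 d lay far below every control library. Cyp2c66, an arachidonic acid oxidising enzyme of the gut, fell from 44.2, 95 and 109 to 3.85, 1.98 and 1.31 (-5.12 ± 0.82, adjusted p = 8.4e-05), and Cyp2c55 from 72.5, 132 and 114 to 6.97, 2.93 and 3.52 (-4.57 ± 0.81, adjusted p = 0.000238). Cyp2u1, a fatty acid hydroxylase, fell from 43.6, 32.6 and 22.4 to 0.802, 1.2 and 1.21 CPM (-4.94 ± 0.74, adjusted p = 4.3e-05). None of these overlapped. Cyp3a59 had 0 counts in all 3 libraries at 3 d and 0.802, 6.24 and 1.39 CPM in control. Set against a floor of 3 counts over the group, 0.0121 CPM, it was at least 232-fold lower than its control mean of 2.81 CPM.

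The 5 genes with CAAAGTCCA in their promoter window were all among the 21 of the 33 that were called lower. The stretches of Cyp2c67, Cyp2c68 and Cyp2c40 are near copies of each other. Cyp3a11 was at 744, 232 and 91 CPM (-2.69 ± 0.71, adjusted p = 0.00655), Cyp2c65 at 87.8, 41.4 and 27.9 (-2.93 ± 0.40, adjusted p = 1.6e-05) and Cyp2c68 at 16.9, 22.5 and 13.8 (-3.14 ± 0.20, adjusted p = 1e-09). Cyp2c40 and Cyp2c67 were scarce, at 0.58, 0.396 and 0.28 and 0, 0.136 and 0.0763 (log2 fold changes -3.51 and -4.04). Genes without those letters fell too, among them Cyp2b10, Cyp3a25, Cyp2c55 and Cyp2c66. At 6 Gy 6 h, Cyp3a11, Cyp2c65 and Cyp2c68 were called lower, while Cyp2c40 and Cyp2c67 were not called (adjusted p = 0.273 and 0.139). Hnf4a was at 956, 845 and 1129 CPM at 15 Gy 3 d against 932, 956 and 609 in control. At 6 Gy 6 h Hnf4a was at 1252, 1431 and 1459 CPM, above every control library. A part of HNF4 in these falls was not tested. The other genes called lower ran from -2.43 (Cyp2c23) to -0.46 (Cyp4f13).

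Cyp4b1 and Cyp20a1 moved the other way. Cyp4b1 rose from 356, 263 and 258 to 734, 598 and 733 CPM (1.24 ± 0.15, adjusted p = 3.9e-06), the highest group mean of that gene. The values overlapped those of 15 Gy 6 h, at 479.6, 508 and 636, and 3 d was not tested against 6 h. Cyp20a1, a P450 with no established substrate, rose from 0.679, 0.549 and 0.745 to 2.69, 3.25 and 3.04 (2.18 ± 0.35, adjusted p = 9.3e-05), without overlap. Cyp20a1 passed the level filter in 5 libraries, 3 of them from this group. Cyp3a13 and Cyp2d26 were not called, at 4542, 3297 and 2852 and 466, 299 and 276 CPM (0.33 ± 0.23, adjusted p = 0.308 and -0.40 ± 0.19, adjusted p = 0.116), nor was Cyp1a1, whose values of 177, 6.45 and 10.7 included 1 high library. Calls at 3 d were lost for Cyp2j9 without control replicate 1, 2 or 3 or 15 Gy 3 d replicate 1 or 3 (adjusted p from 0.061 to 0.149), Cyp4f13 without control replicate 1 or 2 or 15 Gy 3 d replicate 1 or 3 (adjusted p from 0.0635 to 0.136), Cyp4f14 without control replicate 1 or 2 or 15 Gy 3 d replicate 1 or 2 (adjusted p from 0.0616 to 0.211), Cyp27a1 without control replicate 3 or 15 Gy 3 d replicate 1 (adjusted p from 0.0566 to 0.0592) and Cyp4f40 without control replicate 1 or 3 or 15 Gy 3 d replicate 1 (adjusted p from 0.0675 to 0.111).

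Against 24 h after the same dose, 22 of the 33 genes were called at 3 d, 20 lower and 2 higher (66.7%, where 25.3% of all genes were called, 14.1% lower and 11.2% higher). Cyp2b10 went from 404, 938 and 334 to 39.3, 12.6 and 18.6 CPM (-4.57 ± 0.43, adjusted p = 1.4e-07), Cyp3a25 from 332, 697 and 247 to 27.1, 22.2 and 9.05 (-4.45 ± 0.44, adjusted p = 3e-07) and Cyp4v3 from 1642, 1502 and 1805 to 505, 664 and 700.2 (-1.40 ± 0.21, adjusted p = 4.9e-05). None of the 3 overlapped, with replicate 2 of 24 h included or not. Cyp2c66, Cyp2c55 and Cyp2c67 had log2 fold changes of -5.29, -4.46 and -4.23. Cyp4b1 and Cyp20a1 were the 2 higher genes (1.47 and 1.84), and Cyp20a1 passed the level filter only through its level at 3 d. Leaving out single libraries ended the call of Cyp4f13 without 15 Gy 24 h replicate 2 or 15 Gy 3 d replicate 1 or 3 (adjusted p from 0.0554 to 0.0953), Cyp27a1 without 15 Gy 24 h replicate 2 or 3 or 15 Gy 3 d replicate 1 or 2 (adjusted p from 0.0617 to 0.11), Cyp2j6 without 15 Gy 24 h replicate 2 (adjusted p = 0.141), Cyp3a11 without 15 Gy 24 h replicate 2 (adjusted p = 0.0771) and Cyp4f40 without 15 Gy 3 d replicate 1 (adjusted p = 0.0516). Without 15 Gy 24 h replicate 2 the count was 19.

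The enterocyte markers summed to 52337 to 65181 FPKM at 3 d against 57901 to 71534 in control, an overlap, with 9 of 19 called lower and 1 higher and a median of -0.69. The exocrine pancreas markers summed to 317 ± 81.2 FPKM (SD, n = 3) against 48.6 to 60.2, with 1 of 19 called higher. Of 8 T cell markers tested, 6 were called lower. Of 6 distal markers 3 were lower, and of 11 proximal ones 4 were higher and 2 lower. Their part in the P450 result was not tested.

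**Figure D4:**
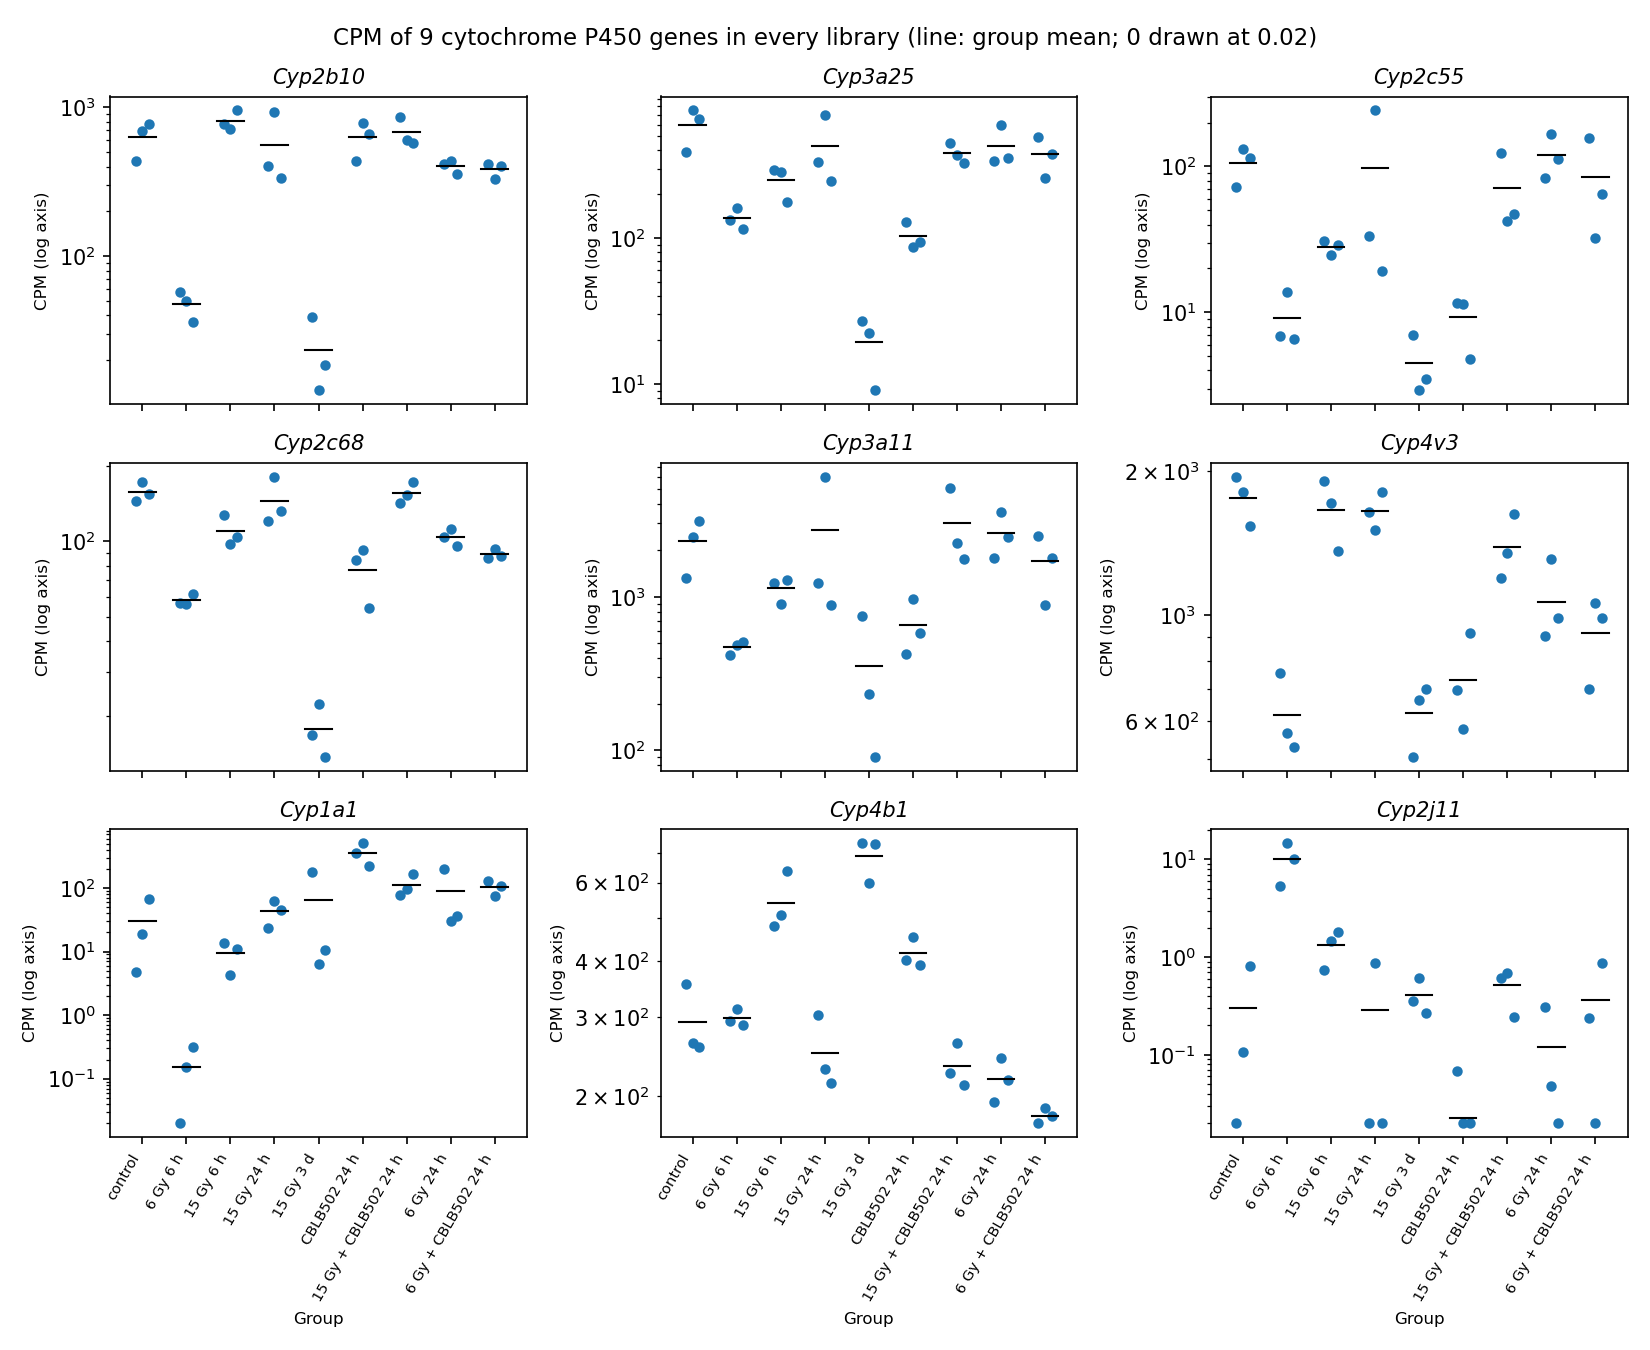
CPM on a log axis of 9 cytochrome P450 genes in every library, in 9 groups of 3, with a line at the group mean and 0 drawn at 0.02. Cyp2b10 is low at 6 Gy 6 h (36.1 to 57.9) and 15 Gy 3 d (12.6 to 39.3), and Cyp1a1 is highest with CBLB502 alone (220.1 to 503). Cyp4b1 has its highest mean at 15 Gy 3 d (598 to 734), overlapping 15 Gy 6 h, and Cyp2j11 is raised at 6 Gy 6 h (5.36 to 14.6).

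At 24 h after CBLB502 alone, 7 of the 33 genes were called against control, 6 lower and 1 higher (21.2%), where 5.74% of all genes tested were called, 3.26% lower and 2.48% higher. The median was -0.55 over the 33 and 0.00 over all genes. Cyp3a25 fell from 388, 751 and 656 to 128, 87.1 and 93.4 CPM (-2.54 ± 0.41, adjusted p = 0.00126) and Cyp2c55 from 72.5, 132 and 114 to 11.6, 11.4 and 4.8 (-3.52 ± 0.77, adjusted p = 0.0112). All treated libraries were below all control libraries for both. Cyp4v3, whose human counterpart is mutated in a crystalline retinal dystrophy, fell from 1944, 1805 and 1532 to 697, 577 and 917 (-1.27 ± 0.21, adjusted p = 0.00155), and Cyp2c68 from 145, 172 and 154 to 84.1, 92.1 and 54 (-1.03 ± 0.19, adjusted p = 0.0031). Cyp2u1 had 8.59, 3.13 and 5.27 CPM against 43.6, 32.6 and 22.4 (-2.54 ± 0.66, adjusted p = 0.0281), and Cyp27a1, the mitochondrial sterol hydroxylase, 32, 40.9 and 95.9 against 122, 110.0 and 178 (-1.28 ± 0.34, adjusted p = 0.0316). Cyp4b1 rose from 356, 263 and 258 to 403, 454 and 393 (0.51 ± 0.15, adjusted p = 0.0459). Cyp2b10 was not called, at 433, 787 and 664 CPM (-0.01 ± 0.37, adjusted p = 0.992). Calls were lost for Cyp27a1 without control replicate 1 or 3 or CBLB502 24 h replicate 1 or 2 (adjusted p from 0.0745 to 0.148), Cyp2u1 without control replicate 1 or 2 or CBLB502 24 h replicate 2 or 3 (adjusted p from 0.0616 to 0.133) and Cyp4b1 without control replicate 2 or 3 or CBLB502 24 h replicate 1 or 2 (adjusted p from 0.0757 to 0.176), and the count was 4 without CBLB502 24 h replicate 2 and 2 when these groups were fitted alone. With library totals in place of TMM 6 were called, all lower, and Cyp4b1 was not (adjusted p = 0.126).

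Cyp1a1, whose promoter stretch is printed above, was at 354, 503 and 220.1 CPM with CBLB502 alone, its highest group. All 3 lay above the control values of 4.84, 18.6 and 66.4, and the difference did not pass the threshold (3.58 ± 1.08, adjusted p = 0.0539). With 15 Gy + CBLB502 it was at 76.7, 97 and 164 and with 6 Gy + CBLB502 at 127, 75.8 and 106, also above control in every library and not called (adjusted p = 0.206 and 0.172). Of 4 further AhR targets tested, 0 were called with CBLB502 alone, and all 4 overlapped control. Ugt1a6a among them was uneven, at 128, 188 and 1.9 CPM against 2.02, 2.01 and 4.04 in control.

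With CBLB502 alone the enterocyte markers summed to 56772 to 57779.6 FPKM against 57901 to 71534 in control, with 1 called higher and 1 lower of 19. Markers that differ along the gut also moved. Of 11 proximal markers 5 were higher and 2 lower, and of 6 distal ones 2 were lower. The exocrine pancreas markers summed to 114 to 144 FPKM, with 1 of 19 called higher. Their part in the P450 result was not tested.

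With 15 Gy + CBLB502, 4 of the 33 genes were called against control, 2 higher and 2 lower (12.1%, against 16.9% of all genes tested, 8.65% higher and 8.2% lower). Cyp2j6 had 350.4, 443 and 506 CPM against 211, 124 and 160.4 in control (1.39 ± 0.36, adjusted p = 0.0119), and Cyp2j9, of the same epoxygenase subfamily, 6.23, 8.99 and 11.6 against 1.8, 1.2 and 1.37 (2.61 ± 0.72, adjusted p = 0.0159). Both pairs of groups were apart. Cyp4f14 fell from 2329.8, 1852 and 1671 to 1001, 1285 and 1301 (-0.71 ± 0.18, adjusted p = 0.0108) and Cyp3a44 from 14, 23.1 and 13.7 to 5.47, 6.3 and 5.99 (-1.51 ± 0.46, adjusted p = 0.0277). Calls were lost for Cyp2j9 without control replicate 2 (adjusted p = 0.0621), Cyp4f14 without control replicate 1 or 15 Gy + CBLB502 24 h replicate 1 (adjusted p from 0.0618 to 0.0691), Cyp2j6 without control replicate 2 (adjusted p = 0.0581) and Cyp3a44 without control replicate 2 or 15 Gy + CBLB502 24 h replicate 1, 2 or 3 (adjusted p from 0.0678 to 0.113), with counts of 1 without control replicate 2 and 2 without 15 Gy + CBLB502 24 h replicate 1. With library totals in place of TMM 3 were called, 2 higher and 1 lower. Of 19 enterocyte markers 8 were called lower, with a median of -0.40 and a summed level of 63137 to 73018 FPKM against 57901 to 71534 in control. Of 6 distal markers 4 were lower, and of 11 proximal ones 3 were higher and 1 lower. Their part in the P450 result was not tested.

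Set directly against 15 Gy at 24 h, 15 Gy + CBLB502 gave 0 called genes of the 33, and 0 of all 11118 genes were called (0%). By unadjusted p under 0.05 there was 1, Cyp4f14 (-0.51 ± 0.18, adjusted p = 0.549), and DESeq2 called 0 of the 33 and 63 of all genes. Without 15 Gy 24 h replicate 2, 1 gene was called, Cyp2j6. The comparison of 15 Gy against no radiation in the effect of CBLB502, an interaction, called 0 of the 33 where 0.225% of all genes were called. By unadjusted p under 0.05 there were 9, and DESeq2 called 2, Cyp3a25 and Cyp2c68. The lowest adjusted p-values were those of Cyp2c68 (1.14 ± 0.26, adjusted p = 0.077) and Cyp3a25 (2.39 ± 0.55, adjusted p = 0.0784). For Cyp3a25 the 4 groups were 388, 751 and 656 CPM in control, 128, 87.1 and 93.4 with CBLB502, 332, 697 and 247 at 15 Gy 24 h and 446, 369 and 329.5 with both. CBLB502 alone was thus the one low group. Without 15 Gy 24 h replicate 2 the interaction called 3 genes, Cyp2c55, Cyp3a25 and Cyp2c68.

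At 24 h after 6 Gy, 11 of the 33 genes were called against control, 4 higher and 7 lower (33.3%, against 33% of all genes tested, 16.6% higher and 16.4% lower), a share at the background. Cyp3a44 fell from 14, 23.1 and 13.7 to 0.7, 1.15 and 0.877 CPM (-4.21 ± 0.52, adjusted p = 1.7e-05), the lowest group mean of this gene, overlapping 6 Gy + CBLB502. Cyp27a1 had 49.1, 78.7 and 71.8 against 122, 110.0 and 178 (-1.04 ± 0.34, adjusted p = 0.0231), Cyp4f14 1003, 1158 and 958 against 2329.8, 1852 and 1671 (-0.91 ± 0.18, adjusted p = 0.000931) and Cyp4v3 903, 1307 and 983 against 1944, 1805 and 1532 (-0.73 ± 0.21, adjusted p = 0.0109). Each was lower in all 3 libraries on the TMM scale. Cyp3a13, Cyp2c68 and Cyp4b1 were lower as well, with log2 fold changes of -0.67, -0.59 and -0.42. Higher were Cyp4a10, a fatty acid hydroxylase and textbook PPARA target, at 6.78, 6.04 and 7.71 CPM against 0, 0.589 and 1.85 (3.07 ± 1.16, adjusted p = 0.0466), and Cyp2j9 at 7.53, 5.05 and 7.93 against 1.8, 1.2 and 1.37 (2.23 ± 0.71, adjusted p = 0.0207). Cyp2c23 and Cyp20a1 were also higher, with log2 fold changes of 1.19 and 1.10. Of 8 further PPARA targets tested in this comparison, 1 was called higher and 2 lower, with a median log2 fold change of 0.08. Cyp2b10, at 419, 437 and 357, was not called (adjusted p = 0.183), unlike at 6 h after the same dose, and the 2 times were not compared.

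All falls at 24 h after 6 Gy but that of Cyp3a44 depended on the scaling. TMM factors were 1.23 to 1.36 in these libraries and 0.861 to 0.864 in control, and with library totals in place of TMM the median over all genes went from 0.07 to 0.66. On that scale 8 of the 33 were called, 7 higher and 1 lower (54.5% of all genes called, 50.7% higher and 3.82% lower). Cyp3a44 stayed lower (-3.63, adjusted p = 1.4e-05), Cyp4b1 changed sign (0.17, adjusted p = 0.46) and the other 5 falls were not called, at -0.45 to 0.00 in log2. In the authors' FPKM, Cyp4f14 was lower without overlap, at 493, 539 and 491 against 764, 615 and 550.3, while Cyp4v3, at 282, 386 and 320.1 against 405, 381 and 321, Cyp27a1, Cyp3a13, Cyp2c68 and Cyp4b1 overlapped control. The 4 rises kept their call, but library totals move all genes upward in this comparison, so this could not test the rises.

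In this group 18 of 19 exocrine pancreas and 4 of 6 smooth muscle markers were called higher. Of 19 enterocyte markers 14 were called lower, with a median of -0.87 and a summed level of 42159 to 49569.6 FPKM against 57901 to 71534 in control. Of 6 distal markers 4 were lower, and of 11 proximal ones 2 were higher and 3 lower. What part these have in the P450 differences was not tested. Single libraries ended calls of Cyp2j9 without control replicate 2 or 6 Gy 24 h replicate 1 or 3 (adjusted p from 0.0509 to 0.0737), Cyp2c23 without control replicate 1 or 3 or 6 Gy 24 h replicate 2 (adjusted p from 0.0505 to 0.06), Cyp27a1 without control replicate 3 or 6 Gy 24 h replicate 1 (adjusted p from 0.102 to 0.107), Cyp4b1 without control replicate 1 or 6 Gy 24 h replicate 1 or 3 (adjusted p from 0.0796 to 0.274), Cyp3a13 without control replicate 1, 2 or 3 or 6 Gy 24 h replicate 1 or 3 (adjusted p from 0.0656 to 0.114), Cyp20a1 without control replicate 2 or 6 Gy 24 h replicate 1 (adjusted p from 0.077 to 0.123), Cyp4a10 without control replicate 1 or 2 or 6 Gy 24 h replicate 1, 2 or 3 (adjusted p from 0.0621 to 0.135), Cyp2c68 without control replicate 2 or 6 Gy 24 h replicate 1 or 3 (adjusted p from 0.0524 to 0.0714) and Cyp4v3 without control replicate 1 or 6 Gy 24 h replicate 1 (adjusted p from 0.055 to 0.0611). The count was 6 without control replicate 1, control replicate 2 or 6 Gy 24 h replicate 3, and 3 without 6 Gy 24 h replicate 1.

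With 6 Gy + CBLB502, 11 genes were called against control, 3 higher and 8 lower (33.3%, against 37.3% of all genes, 19.8% higher and 17.5% lower). Cyp3a44 was at 0.984, 2.04 and 1.68 CPM (-3.43 ± 0.50, adjusted p = 6.4e-05), Cyp4f14 at 1029, 1032 and 1021 (-0.93 ± 0.18, adjusted p = 0.000686) and Cyp4v3 at 699, 1061 and 984 (-0.94 ± 0.21, adjusted p = 0.00162). All 3 were below control in every library on the TMM scale. Cyp2c68 and Cyp4b1 were lower as well (-0.82 ± 0.18, adjusted p = 0.00193 and -0.69 ± 0.15, adjusted p = 0.00139), and Cyp20a1 was higher (1.27 ± 0.35, adjusted p = 0.00745). With library totals in place of TMM, 6 of the 33 were called, 5 higher and 1 lower, Cyp3a44 (57.1% of all genes called, 53.4% higher and 3.77% lower). The median over all genes was then 0.69 in place of 0.07, Cyp2d22 changed sign (0.13 in place of -0.49, adjusted p = 0.454), and Cyp4f14, Cyp4v3, Cyp2c68, Cyp4b1, Cyp27a1 and Cyp2u1 were not called. Of 19 enterocyte markers 12 were called lower, with a median of -0.77 and a summed level of 38523 to 50247 FPKM. Of 6 distal markers 3 were lower, of 7 hepatocyte markers 4 were higher and 1 lower, and of 19 exocrine pancreas markers 18 were higher. The part of these markers in the P450 differences was not tested. Against 6 Gy alone at 24 h, 0 of the 33 were called and 0 of all genes (0%), 0 had an unadjusted p under 0.05, and DESeq2 called 0 of the 33 and 7 of all genes. The fitted differences of the 33 lay between -1.25 (Cyp4a10) and 1.62 (Cyp2j11). Against control, calls were lost for Cyp2j9 without control replicate 2 (adjusted p = 0.0628), Cyp2c23 without control replicate 1, 2 or 3 or 6 Gy + CBLB502 24 h replicate 2 or 3 (adjusted p from 0.0655 to 0.152), Cyp27a1 without control replicate 3 or 6 Gy + CBLB502 24 h replicate 1 or 2 (adjusted p from 0.0877 to 0.128), Cyp2u1 without control replicate 1 or 2 or 6 Gy + CBLB502 24 h replicate 1, 2 or 3 (adjusted p from 0.0521 to 0.138) and Cyp2d22 without control replicate 2 or 6 Gy + CBLB502 24 h replicate 1 (adjusted p from 0.0558 to 0.0763), and the count was 7 without control replicate 2.

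The P450 reductase Por was at 534, 550.1 and 507 CPM in control, 156, 183 and 202 at 6 Gy 6 h (-1.56 ± 0.21, adjusted p = 1.1e-05) and 621, 878 and 1027 at 15 Gy 6 h (0.67 ± 0.21, adjusted p = 0.0196). It lay below control in every library at the lower dose and above it in every library at the higher one. Of 12 tested genes for electron supply and haem, 5 were lower at 6 Gy 6 h and 6 at 15 Gy 3 d, and none was higher in either. Cytochrome b5, Cyb5a, was lower in both (-1.50 ± 0.25, adjusted p = 0.000103 and -2.03 ± 0.25, adjusted p = 4.8e-06), as was the haem-binding Pgrmc1 (-1.17 ± 0.11, adjusted p = 8.7e-08 and -1.24 ± 0.11, adjusted p = 4.6e-08).

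Of 10 further PXR or CAR targets, 6 were lower at 6 Gy 6 h and 9 at 15 Gy 3 d, with medians of -1.39 and -2.53 and none higher. Abcb1a, the drug efflux pump, was at 764, 1242 and 705 CPM in control and 14.4, 11.3 and 15.2 at 6 Gy 6 h (-6.05 ± 0.34, adjusted p = 1.9e-10), the groups far apart. At 3 d, Ugt1a1, the bilirubin conjugating enzyme, was at 100.2, 64.2 and 27.8 against 400.2, 471 and 471 (-2.81 ± 0.32, adjusted p = 1.6e-06). With CBLB502 alone 2 of 10 were lower, Abcb1a (-1.12 ± 0.28, adjusted p = 0.023) and the esterase Ces2a (-2.34 ± 0.61, adjusted p = 0.0276). Of 18 tested genes for nuclear receptors and AhR, 3 were lower and 5 higher at 6 Gy 6 h, and 4 lower and 1 higher at 3 d. PXR itself, Nr1i2, was at 141, 148 and 213 CPM in control, 172, 161 and 148 at 6 Gy 6 h and 139.7, 150.4 and 127 at 3 d, and was called in neither.

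Clock genes were examined because several control P450 genes in liver. Of 14 tested, 9 were lower and 2 higher at 6 Gy 6 h, and 9 lower and 3 higher at 3 d, against 1 lower at 15 Gy 6 h and 0 with CBLB502 alone. Dbp, a clock output factor, was at 94.3, 93.1 and 85.5 CPM in control, 1.27, 6.17 and 6.03 at 6 Gy 6 h and 0.728, 4.2 and 1.65 at 3 d, and at 94.6, 53.5 and 31.7 at 15 Gy 6 h. At 15 Gy 24 h, where 1 of the 33 P450 genes was called, it was at 0.483, 24.4 and 18.1 and not called (adjusted p = 0.114). There 4 clock genes were lower and 2 higher, with a median of -1.13. The group given 15 Gy + CBLB502 had 9 of 14 clock genes lower and 3 higher and 4 of the 33 P450 genes called. At 24 h after 6 Gy, 6 clock genes were lower and 1 higher, and with CBLB502 added 3 were lower. Collection time of day is not given, and the part of the clock genes in the P450 result was not tested.

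Some of the 33 rest on few libraries. Cyp2j11 and Cyp4f18 reached 1 FPKM in 3 libraries, Cyp4f37 in 4, Cyp2c67 and Cyp20a1 in 5 and Cyp3a59 in 8. For Cyp4f18, a leukotriene hydroxylase of white blood cells, the 3 were in the 2 groups sampled 24 h after 6 Gy, at 1.17, 0.316 and 1.79 and 1.03, 1.93 and 2.05 CPM against 0.123, 0.254 and 0.358 in control, and it was called in no comparison. Cyp2c29 was not called either, with values between 0.471 and 129.6 CPM over the 27 libraries. Just below the level lay Cyp4a29, Cyp2c38 and Cyp2e1 with 2 libraries at 1 FPKM and Cyp2d10 with 1, and their highest values were 6.22, 1.18, 1.16 and 1.43 FPKM. Cyp51, the sterol demethylase whose symbol does not match the pattern, stood between 3.24 and 6 FPKM in control and is not among the 33. It was called higher with CBLB502 alone (log2 fold change 2.21 ± 0.60, adjusted p = 0.0337). The libraries of that group were far apart, from 5.58 to 51.8 FPKM, and overlapped control. Under the reading that protein_coding is the only listed type, 9 of 13 genes were called at 6 Gy 6 h, 8 of them lower, and 8 of 13 at 15 Gy 3 d, all lower. At 24 h after 6 Gy it was 7 of 13 (5 lower and 2 higher), where 11 of the 33 and 33% of all genes were called.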

How the data were processed

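RNA-seq of mouse intestine was analysed in 27 libraries, 3 in each of 9 groups taken from the labels. The deposited table holds whole-number read counts per gene and, per the file headers, FPKM values by the authors, in which 0.0001 stands for 0. The submitters' processing notes name Bowtie 0.12.2, HISAT2 2.0, StringTie 1.3.0 and build mm8. Gene positions in the table equal GENCODE vM21 on GRCm38 for 31 of the 33 genes, so GRCm38 is given. No annotation or strand setting is named for the counting.

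Totals were 57.4 to 87.1 M counts. Genes reaching FPKM 1 in 3 or more libraries were tested on the deposited counts with edgeR 4.0.16 (R 4.3.3): TMM scaling, 1 fit of 9 group means, the quasi-likelihood F test and Benjamini-Hochberg adjustment over 11118 genes. The test was checked on simulated counts for 15 Gy 3 d against control only: of 11118 genes, with 200 changed, it called 65 of 70 changed by a fold of 4, 27 of 73 by 2 and 5 of 57 by 1.5, and 6 unchanged ones. The changed genes were drawn from those above a minimum mean count. They were far fewer than the 3273 called in the data, which alters the adjustment, so these shares do not carry over to the data. A standard error is the fold change over the square root of F. FPKM set the level filter and served for levels between genes and for sums over genes and markers, and every test used counts.

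Genes named are those of the rule, with values in every library for up to 6 rises and 6 falls per comparison among those called. Values of further genes, among them the 5 with the HNF4 motif at 15 Gy 3 d and genes that were not called, were added after their values were seen. Up to 4 genes are named per comparison from lists of partner, receptor, target and clock genes. Marker lists covered enterocyte, hepatocyte, exocrine pancreas, fibroblast, smooth muscle, T cell, proximal and distal small intestine and colon. The members and lists were chosen with earlier results of these data known. Alternatives were median-ratio scaling, DESeq2 1.42.0, no level filter, a replicate block, the compared groups alone, leaving out libraries, and, chosen after seeing the data, leaving out 37 mitochondrial genes and scaling to library totals without TMM.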

Additional observations from a re-analysis of the deposited data

How the results depend on the processing

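Of 129 calls of P450 genes, 2 changed direction, both with library totals in place of TMM scaling: Cyp4b1 at 24 h after 6 Gy (0.17) and Cyp2d22 with 6 Gy + CBLB502 (0.13). That scaling kept 98 calls. DESeq2 kept all 129, median-ratio scaling and leaving out mitochondrial genes 128 each, the replicate block 123, no level filter 112 and the compared groups alone 103. Without the 6 libraries of 24 h after 6 Gy, 95 of 107 were kept, and with 1 library left out 619 of 774. The number of P450 genes called after 15 Gy at 6 h went from 7 to 4 with no level filter and to 4 without those 6 libraries. At 24 h after 6 Gy it went from 11 to 7 with no level filter. Fitting the compared groups alone gave 0 for 15 Gy at 24 h, 2 for CBLB502 and 3 for 24 h against 6 h of 15 Gy, where all genes called numbered 12, 56 and 2024 against 549, 638 and 3575. For the interaction DESeq2 called 2, and 128 of all genes against 25. With library totals the counts were 4 for 15 Gy at 6 h, 6 for 6 Gy + CBLB502, 2 for 24 h against 6 h of 15 Gy and 1 for the interaction, and all genes called were 6058 for 6 Gy at 24 h, 6352 for 6 Gy + CBLB502, 271 for 15 Gy at 24 h and 384 for CBLB502. The median over all genes was then 0.28 at 15 Gy 3 d, 0.18 at 6 Gy 6 h and 0.20 with 15 Gy + CBLB502, in place of 0.02, 0.05 and 0.01. The cause was not tested beyond what the settings change by construction, fewer samples or more genes tested.

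The background moved by over 1.5 times in other cases too. At 15 Gy 24 h, 262 of all genes were called with no level filter, 292 without those 6 libraries and 1071 with DESeq2, and with CBLB502 alone 350, 412 and 1129. The compared groups alone gave 1532 in place of 3219 for 15 Gy at 6 h, 2142 in place of 3273 for 15 Gy at 3 d, 1213 in place of 1874 for 15 Gy + CBLB502, 1663 in place of 2813 for 3 d against 24 h and 4 for the interaction. For CBLB502 on top of 15 Gy, 1 gene was called with no level filter and 63 with DESeq2, and on top of 6 Gy 1 with the groups alone and 7 with DESeq2, in place of 0.

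With 1 library left out, the counts against control were 17 to 20 for 6 Gy at 6 h, 2 to 5 for 15 Gy at 6 h, 3 to 10 for 6 Gy at 24 h, 0 to 2 for 15 Gy at 24 h and 19 to 22 for 15 Gy at 3 d. They were 4 to 9 for CBLB502, 1 to 5 for 15 Gy + CBLB502 and 7 to 11 for 6 Gy + CBLB502. They were 0 to 1 and 0 to 0 for CBLB502 on top of 15 Gy and 6 Gy, 14 to 18 between doses, 2 to 8 for 24 h against 6 h, 19 to 23 for 3 d against 24 h and 0 to 3 for the interaction.

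The labels give every group replicates 1 to 3, and whether equal numbers mark a shared day is not stated. Libraries of the same number had deviations correlated at -0.26 to 0.25 over all genes, and in no comparison were all 3 pairs over 0.1. With the replicate number as a block the P450 counts were 19 for 6 Gy at 6 h, 23 for 15 Gy at 3 d and 1 for the interaction. Depth limits the scarce genes, such as Cyp2j11, Cyp4f18 and Cyp3a59, whose values are near 0 in several groups.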

Other observations

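The 33 genes differed widely in how steady they were. Over all 27 libraries Cyp4f13, Cyp2d22 and Cyp3a13 varied least, with a highest over lowest CPM of 2.72, 2.74 and 2.88, and Cyp4f14 (3.05), Cyp4v3 (3.85) and Cyp4b1 (4.21) followed. Among genes above 0 in every library, Cyp2c29, a hydroxylase of the mouse Cyp2c block, spanned the most, from 0.471 to 129.6 CPM, and its highest and lowest values came from replicate 3 of 15 Gy 6 h and of 15 Gy 3 d. Cyp3a25, Cyp2c55, Cyp2b10 and Cyp3a11 spanned 82.9, 82.8, 75.4 and 66.1 times. The second library of 6 Gy 24 h was the highest of its group for 22 of the 33 genes, where it was the highest for 34.6% of all genes.

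Targets of PPARA, the fatty acid receptor behind Cyp4a10, were lower for 6 of 8 tested at 6 Gy 6 h, among them Angptl4 (-2.99 ± 0.48, adjusted p = 8.4e-05, edgeR) and Fabp1 (-0.88 ± 0.17, adjusted p = 0.000484), while Cyp4a10 was not called (log2 fold change 1.61, adjusted p = 0.306). With CBLB502 alone Fabp1, the intestinal and liver fatty acid binding protein, was higher (0.61 ± 0.17, adjusted p = 0.0366). Of 4 further AhR targets tested, 2 were called lower at 6 Gy 6 h and 0 higher, in the comparison in which Cyp1a1 was lower as well. They were Nqo1 and Tiparp (-2.09 ± 0.50, adjusted p = 0.00322 and -0.71 ± 0.24, adjusted p = 0.0309). Ugt1a6a was not called, at 0.406, 9.56 and 9.02 CPM against 2.02, 2.01 and 4.04 in control. At 24 h after 6 Gy, 2 of the 4 were higher and 1 lower. Of 4 fibroblast markers tested, 3 were higher at 24 h after 6 Gy and 3 with CBLB502 added, and of 7 colon markers 2 were lower and 1 higher at 6 Gy 6 h and 2 lower at 15 Gy 3 d. Their part in the P450 differences was not tested.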
